A study of Sebastes mystinus with 44 samples.

Results

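The 150 assembled transcripts whose level differed most among fish kept under the same condition were picked out of 239549 features measured in white muscle of juvenile blue rockfish (Sebastes mystinus). For each feature, the count relative to the total of its library (CPM) was put on the log2(CPM+1) scale, and the SD within each of 12 groups was averaged over the groups. Only features with a mean of 5 to 500 CPM and fewer than 6 fish under 0.5 CPM were ranked, which left 8319, and the 150 of largest mean SD are the members described here. The spread within groups chose them, so spread and covariation are given as a description without a test. The group means were not used in the choice.

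RNA was sequenced from 44 fish, 1 library each, in 4 exposures (control, pH, DO and cross) sampled at 12 h, 24 h and 2 weeks. All fish were juveniles held in aquaria with running seawater at one temperature range. Control fish had untreated seawater as far as the labels say, pH fish had carbon dioxide bubbled in, and DO fish had oxygen lowered with nitrogen. Cross is left undefined in the labels and is taken, from knowledge of the study, as both exposures together. There were 4 fish in each group, but 3 in the pH and DO groups of 24 h and 2 in the pH group of 2 weeks. Which aquarium and library set a fish belonged to is not known here. Some fish of a group may have come from the same aquarium. The p-values treat fish as independent. Cross fish carry numbers from another range than all other fish, and any separate handling cannot be told apart from that exposure.

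White muscle makes up most of the trunk of a fish and powers bursts of swimming, mainly by breaking down glycogen without oxygen. Individual fish of one species are known to differ in the level of many transcripts, some through inherited variation and some through physiological state. A whole-tissue library also holds RNA of blood, vessels, connective tissue and nerve. In such RNA, fewer cells of a type and less RNA per cell cannot be told apart. The tables give identifiers without gene names, so the members are named by their assembly identifiers, no function is given to any of them, and the tissue could not be checked against marker genes. Identifiers are written without the prefix TRINITY_ that all share. The part before _g names a cluster of the assembly, within which features can be pieces or variants of 1 gene.

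Library totals ran from 9884996 to 36692935 counts per fish. The control fish Mys25 at 24 h stood apart from the others. Its root mean square deviation from its group mean was 0.849 (log2) over all 8319 features, the highest of 44 fish, which ranged down to 0.306. Several results that rest on this fish are given with and without it. Correlations between set means, between single pairs of features and over all pairs are given only with it.

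**Figure D1:**
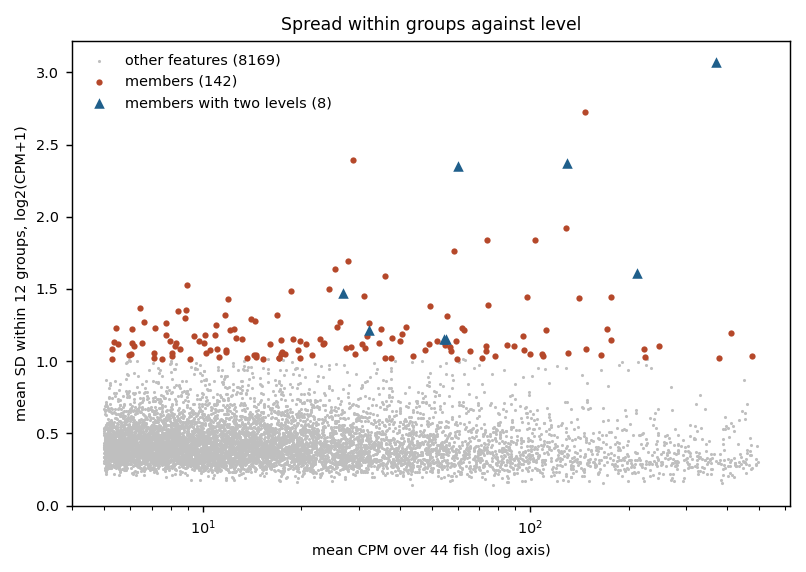
Mean within-group SD of log2(CPM+1), over 12 groups, against mean CPM over 44 fish on a log axis, for the 8319 features that passed the level filter. The 150 members lie above 1.01 and cover the range of levels from 5.28 to 475 CPM, and the triangles are 8 members that sat at 2 separate levels.

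Members had a mean within-group SD of 1.01 to 3.07 (median 1.13), where all ranked features had a median of 0.411. The last member, DN41700_c3_g3 at rank 150, had 1.01493, and the first feature left out, DN43833_c4_g2, had 1.01491. The ranking therefore has no step at its edge. By mean CPM over fish, members were not the rarest of the ranked features, with a median of 25.6 CPM against 13.2 CPM. The high fish that widen the spread also raise this mean. DN56095_c5_g3, for example, had a mean of 130 CPM and a median fish of 5.73 CPM. The spread that Poisson counting alone gives at each member's mean CPM and the library depths had a median SD of 0.069. The observed SD was 7.65 to 164 times that (median 17.1). In skewed members most fish lay away from the mean, so counting error there was another. DN49540_c1_g1, for 1, had a mean of 26.9 CPM and a median fish of 1.58 CPM. Over all ranked features the ratio had a median of 4.75. The rule used the SD in this ratio, so a high ratio in members follows from their choice, and it covers counting error only. In 44 members at least 1 fish was under 0.5 CPM. Each member's highest fish stood at 2.04 to 201 times its median fish, and for the middle member at 10.9 times.

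The large spread was not held by a single group. The median SD of members ran from 0.859 in control fish at 12 h to 1.56 in cross fish at 12 h, while over all ranked features it ran from 0.283 to 0.573. Between 116 and 148 of the 150 members lay above the median of all ranked features, depending on the group, and 56 did so in all 12 groups. The mean of these same SDs chose the members, so such counts follow in part from the choice. Choosing 150 features by their SD at only 2 sampling times and reading it at the time held out gave SDs that the ranking had not used. The level filter before that ranking still used all fish, those of the held-out time included, so the choice was not fully independent of them. Of features ranked without the 12 h fish, 148 of those chosen lay above the median at 12 h, with a median SD of 1.01 against 0.381 over all. Holding out 24 h gave 149, with 1.07 against 0.490. Holding out 2 weeks gave 146, with 0.851 against 0.349. Of the chosen features, 69 (12 h), 52 (24 h) and 49 (2 weeks) were also among the 150 most variable of the held-out time.

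The most variable member, DN45595_c3_g4, was split by a wide gap into 20 high and 24 low fish. Its high fish had 114 to 1371 CPM and its low fish had 4.08 to 13.96 CPM. The lowest of the high fish, the cross fish Mys7076 at 2 weeks, lay between the levels. It had 114 CPM, and all other high fish had 548 CPM or more. Both levels occurred in 10 of the 12 groups, control fish included. Control fish at 12 h had 1318, 4.19, 11.9 and 788 CPM. DO fish at 2 weeks had 1349, 5.17, 759 and 750 CPM. The groups with a single level were DO at 24 h and pH at 2 weeks, where every fish was low. High fish numbered 7 of 16 at 12 h, 5 of 14 at 24 h and 8 of 14 at 2 weeks.

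Other members had the same form, defined after the values were seen as a gap of at least 2 log2 units with 3 or more fish on each side. In all, 8 of the 150 members met it, as did 11 of the 8319 ranked features. Since a wide gap makes a large SD, this share follows in part from the choice of members. DN54518_c8_g8 was near an even division, with 24 fish at 52.1 to 204 CPM and 20 fish at 1.51 to 3.99 CPM. DN56095_c5_g3 was high in 9 fish, at 396 to 1065 CPM, and lay at 2.27 to 9.25 CPM in the other 35. DN49540_c1_g1 was high in 4 fish, at 230 to 319 CPM, and at or under 2.81 CPM in 40. The high fish of DN49540_c1_g1 were 2 pH fish, 1 DO fish and 1 cross fish, from all 3 times.

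The other 4 members with a gap were the reverse, present in most fish and nearly missing in a few. DN46163_c2_g1 had 54.5 to 515 CPM in 40 fish and at most 1.51 CPM in 4. DN24867_c0_g1 had 12.7 to 82.0 CPM in 40 fish, and its 4 low fish had at most 4.08 counts. DN42487_c19_g1 had 22.1 to 154 CPM in 41 fish and at most 0.353 CPM in 3. DN108361_c0_g1 had 14.1 to 129 CPM in 41 fish and at most 1.59 CPM in 3. In each of these 4 members the low fish came from different groups. None of the 8 gapped members varied together with another member at the mean r of 0.5 used for sets.

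**Figure D2:**
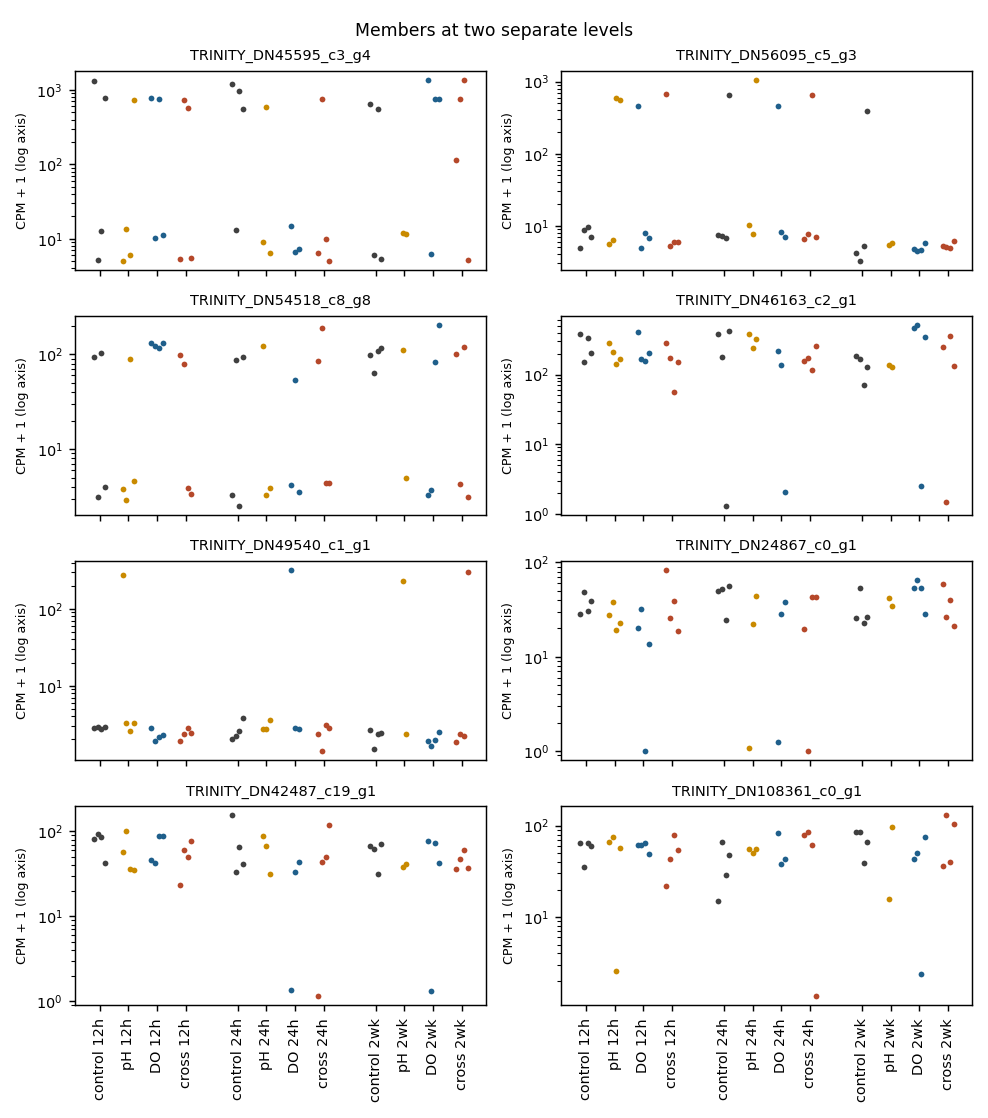
CPM + 1 on a log axis in each of 44 fish (points), by group, for the 8 members at 2 separate levels; grey is control, yellow pH, blue DO and red cross. High and low fish occur side by side within groups, as in DN45595_c3_g4 with both levels in 10 of 12 groups. In DN45595_c3_g4 the cross fish Mys7076 at 2 weeks, counted as high, lies between the levels at 114 CPM.

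To see which members varied together, the group mean was taken from each value and members were clustered on their Pearson correlation over the 44 fish (average linkage, cut where the mean r between branches is 0.5). This gave 9 sets of 5 or more, holding 93 members in sets of 23, 19, 17, 8, 6, 5, 5, 5 and 5. A further 26 members fell into sets of 2 to 4, and 31 into none. The mean r within the 9 sets was between 0.60 and 0.84. Over all 11175 pairs of members the median r was 0.05, and 7.85% of pairs exceeded 0.5. Pairs of all ranked features had a median of 0.30, with 23.5% above 0.5. Both summaries of pairs include Mys25 and were not computed without it. All these correlations share libraries and the scaling by library total. The cut fixes that r is high within sets, so the size of r there is a description of the sets and not a result.

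**Figure D3:**
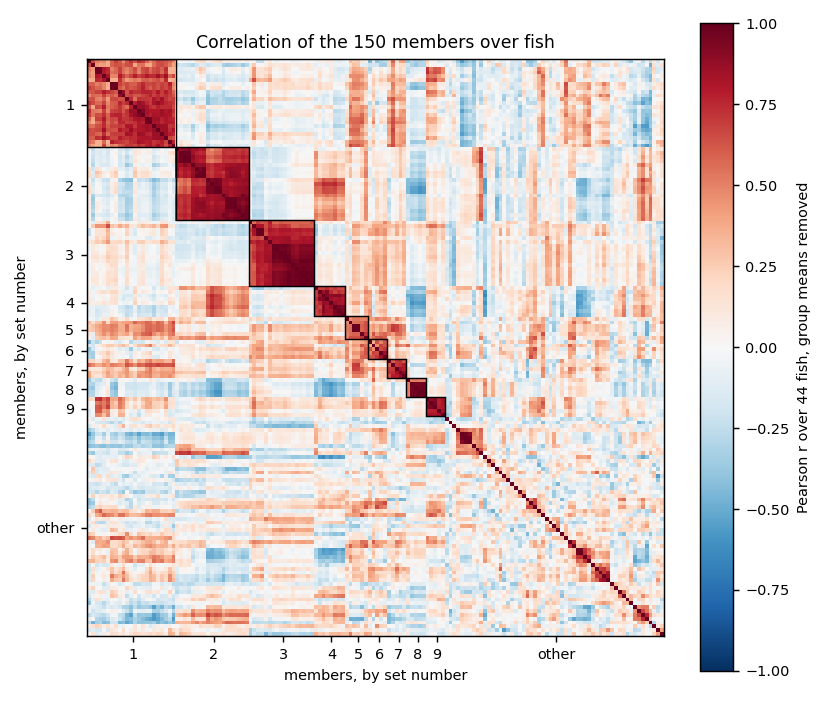
Pearson r over 44 fish, after removal of group means, between all 150 members ordered by set; red is positive, blue negative, and black squares outline the 9 sets of at least 5 members. Sets 2 and 3, with mean r of 0.81 and 0.82, form dense squares. The mean of set 2 correlates with that of set 4 at 0.46, and set 3 with set 6 at 0.44. Sets 1, 5 and 7 also share colour with each other, and the means of sets 5 and 6 correlate at 0.64.

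Set 1 was the largest, with 23 members and a mean r of 0.67 (0.59 without Mys25). Its members had mean levels of 9.16 to 248 CPM. The 2 that correlated best with the rest were DN45399_c6_g1 and DN50444_c4_g1. Control fish at 24 h had 13.6, 281, 259 and 397 CPM of DN45399_c6_g1, the lowest in Mys25. Cross fish at that time had 33.2, 24.5, 22.7 and 115 CPM. Of the other ranked features, 9.99% correlated with the mean of set 1 above 0.7, and 3.50% did (290 features) without Mys25. The set was thus part of a wider variation among fish, a large share of which rested on 1 fish.

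Sets 2 and 3 were followed by far fewer features than set 1. Set 2 had 19 members at 5.29 to 59.8 CPM, and 28 other features followed its mean above 0.7 (33 without Mys25). Set 3 had 17 members at 6.06 to 35.1 CPM, and 30 other features followed it (34 without Mys25). The fish with the highest level of set 2 was the cross fish Mys7066 at 12 h. The number of features that follow set 2 was not computed without this fish. In that fish DN45402_c1_g1, which led the set with DN45614_c1_g1, reached 76.7 CPM, and the other cross fish of that time had 2.11, 9.28 and 6.44 CPM. Control fish at 12 h lay close together, at 6.91, 8.03, 10.3 and 5.10 CPM. In set 3, led by DN41676_c1_g1 and DN56143_c29_g1, cross fish at 24 h had 25.9, 235, 3.31 and 69.1 CPM of DN56143_c29_g1. High fish of set 3 also occurred among controls, where DN56143_c29_g1 had 83.1, 20.98, 2.61 and 7.49 CPM at 12 h. The r between the means of sets 2 and 3 was -0.08.

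Set 4 had 8 members, among them DN41182_c0_g1, second of all members in spread, and DN51862_c0_g4. The level of DN41182_c0_g1 ran from 0.782 to 726 CPM with a median of 43.5 CPM. Unlike the gapped members it filled the range between. Control fish at 12 h had 7.46, 253, 400 and 63.8 CPM, and DO fish at 2 weeks had 1.82, 4.25, 12.1 and 5.71 CPM. Only 5 other features followed set 4 above 0.7 (9 without Mys25). Its mean correlated with that of set 2 at 0.46 and with that of set 8, which has 5 members, at -0.54. The 2 lowest correlations between single members also involved set 4. DN55988_c18_g3, a member of no set, stood at -0.65 to DN41182_c0_g1 and at -0.61 to DN53576_c4_g1. Of the 11175 pairs, 57 lay under -0.5.

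Set 5, with 6 members led by DN47163_c1_g3 and DN41367_c6_g2, was like set 1 in its reach. It was followed by 699 other features above 0.7 (606 without Mys25). Set 7, with 5 members, was followed by 462 (320 without Mys25). The means of sets 5 and 7 correlated at 0.61, sets 1 and 5 at 0.53, and sets 1 and 7 at 0.51. Set 6 was tied to set 5 at 0.64 and was followed by 50 other features. Sets 8 and 9 had few followers above 0.7, 3 and 5 (3 and 16 without Mys25), though the mean of set 8 correlated with that of set 4 at -0.54.

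For each member the fish farthest from its group mean was noted. Mys7066 was that fish in 21 members, on the high side in 20 of them. Mys25 was that fish in 19 members, on the high side in 1. Over all ranked features Mys25 held 21.6% of these extremes and Mys7066 2.21%. In total 38 of the 44 fish were the extreme of at least 1 member.

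The 5 pairs of members from a common assembly cluster correlated at 0.89 to 0.99. The other 140 clusters gave 1 member each. Reads of 1 gene can be divided among features of a cluster, so the counts of all features in a member's cluster were summed and the within-group SD of the sum was set beside that of the member. Of the 150 members, 31 had a cluster of their own. The ratio of the summed to the member's own SD was 0.9 to 1.1 in 82 members (including those 31), 0.5 to 0.9 in 51, over 1.1 in 4 and under 0.5 in 13.

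The largest fall was in DN54518_c8_g8, one of the gapped members, from 2.35 to 0.40. Its cluster of 14 features had 100 to 287 CPM in all fish. The most abundant partner, DN54518_c8_g1, ran from 41.9 to 197 CPM and correlated with it at -0.53. Fish low in this member thus had reads on other features of the cluster. The next was DN54594_c34_g2, from 1.44 to 0.32, beside the far more abundant DN54594_c34_g1 with a mean of 896 CPM and an r of 0.25. There most of the summed reads are the partner's. The spread of DN45595_c3_g4 barely moved, with a ratio of 0.966 in a cluster of 4 features. DN46163_c2_g1, DN49540_c1_g1, DN24867_c0_g1, DN42487_c19_g1 and DN108361_c0_g1 were each alone in their cluster. Their ratio of 1 was therefore fixed beforehand and tells nothing about pooled reads.

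**Figure D4:**
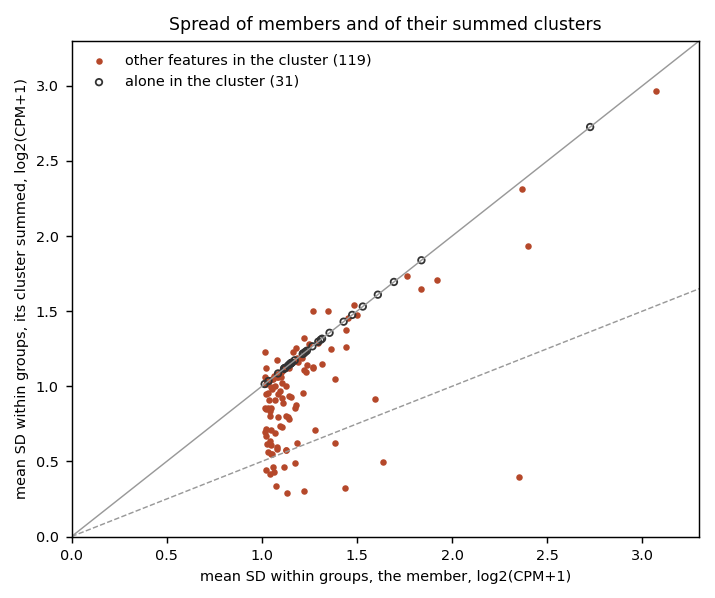
Mean within-group SD of log2(CPM+1) of each member's summed assembly cluster against that of the member itself; the solid line marks equal values and the dashed line a ratio of 0.5. The 13 members under the dashed line kept less than 0.5 of their spread in the sum, and open circles are the 31 members alone in their cluster.

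The exposures were compared with control within each time by edgeR's quasi-likelihood test over all features, with Benjamini-Hochberg adjustment. No member passed an adjusted p of 0.05 in any of the 9 comparisons. The share of all tested features that passed was 0% in all but 2 of these comparisons, the exceptions being pH at 2 weeks (0.124%) and DO at 2 weeks (0.00376%). The members were chosen for a large within-group spread, and that spread is the error against which the test sets a difference. Whether this bears on the number of calls was not tested. In simulated counts, the same test found 5%, 1% and 4% of planted 2-fold changes for DO at 12 h, 24 h and 2 weeks. Of 4-fold changes it found 63%, 24% and 79%. For 2 weeks against 12 h, the shares found were 16% and 95%. The simulation gave all features 1 common spread, not that of the members. That spread was estimated over all fish of a fit without regard to group, so differences between groups entered it. Calls of 0 thus do not show that members were unchanged by an exposure. At an unadjusted p under 0.05, edgeR had 7 members for pH, 24 for DO and 8 for cross at 12 h. These were 4.67%, 16% and 5.33% of members, where the shares over all features were 2.13%, 6.62% and 4.98%. At 24 h edgeR had 23, 24 and 42 members (15.3%, 16% and 28%), against 8.34%, 6.48% and 16% over all. Without Mys25 these members numbered 27, 28 and 55, and the shares over all features were not computed. At 2 weeks it had 10, 20 and 9 members (6.67%, 13.3% and 6%), against 12.4%, 7.98% and 4.41%. Other tools called members in some of these comparisons. DESeq2 called 2 for DO at 12 h, 15 for cross at 24 h, 3 for pH at 2 weeks and 2 for DO at 2 weeks. Of all features it called 0.117%, 2.05%, 2.84% and 0.128% in those 4 comparisons. In the other 5 it called 0 members, and of all features 0.0283% (pH at 12 h), 0.0986% (pH at 24 h), 0.00376% (cross at 2 weeks) and 0% (cross at 12 h, DO at 24 h). limma voom called 21 members for cross at 24 h, against 3.86% of all features. In the other 8 it called 0 members, and of all features 0.549% for pH and 0.00376% for DO at 2 weeks and 0% elsewhere.

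Of the members at an unadjusted p under 0.05, set 1 held 16 of 24 for DO at 12 h and 19 of 42 for cross at 24 h. At 12 h, the mean log2(CPM+1) of its members in control fish was 6.15, 6.33, 6.34 and 6.41. DO fish of that time had 3.95, 5.44, 3.89 and 4.04, all below the controls. The pH fish had 5.68, 7.32, 6.95 and 5.18 and cross fish had 7.84, 7.13, 5.45 and 6.54, on both sides of the controls. In the edgeR fit all 23 members of set 1 had a negative log2 fold change for DO, with a median of -1.68, and 16 of them an unadjusted p under 0.05. For DO at 24 h all 23 were again negative, with a median of -1.91 and 13 at an unadjusted p under 0.05, and without Mys25 the median was -2.18 with 17. For DO at 2 weeks 2 of 23 were negative, with a median of 0.67 and 1 at an unadjusted p under 0.05. In the DO comparisons of 12 h, 24 h and 2 weeks, 6.62%, 6.48% and 7.98% of all features had such a p. None of the 23 passed edgeR's adjusted threshold at any of these times, and DESeq2 called 2 of them, both lower, at 12 h. Members of a set move together from fish to fish, so these are not 23 separate observations.

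At 24 h the control fish split. Mys26, Mys27 and Mys28 had set 1 means of 7.12, 7.25 and 7.44, above every exposed fish of that time, and Mys25 had 3.29, below every one. The exposed fish had 4.71, 6.33 and 3.77 for pH, 4.22, 6.30 and 4.15 for DO, and 4.41, 3.52, 3.55 and 5.51 for cross. With all fish, the 23 members had a median log2 fold change of -2.22 for cross against control and 19 an unadjusted p under 0.05, and none passed the adjusted threshold of edgeR. Without Mys25, edgeR called 14 of the 150 members for cross at 24 h, all lower, against 3.92% of all features, and 13 of the 14 belonged to set 1. In edgeR with its main settings, their call thus turned on 1 control fish. Without its low-count filter, edgeR called 8 members for cross at 24 h with all fish kept. The share of all features called under that setting is not given here, so this count has no background. Of the 15 members that DESeq2 called with all fish, 11 were in set 1, and of the 21 that limma voom called, 16 were, all of them lower in cross fish.

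Whether an exposure effect differed among the 3 times was tested with 1 fit of all 44 fish. edgeR called 0 members for pH, DO and cross, as it did 0% of all features. An unadjusted p under 0.05 was found in 10, 18 and 32 members (6.67%, 12% and 21.3%), where the shares over all features were 7.84%, 7.01% and 13.3%. DESeq2 called 6 members for cross (0.839% of all features) and limma voom 5 (0.305%), and both called 0 for pH and DO. For pH these tools called 0.402% and 0.0117% of all features, and for DO 0.0352% and 0.17%. Without Mys25 edgeR called 9 members for cross, against 2.91% of all features, 7 of them in set 1.

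In set 4, DO fish had low means at 2 weeks, at 2.26, 2.85, 3.22 and 2.37. Control fish had 2.73, 6.76, 4.87 and 3.01, so the groups overlapped. The 8 members had a median log2 fold change of -2.83, with 5 at an unadjusted p under 0.05 in edgeR, where 7.98% of all features had one, and 0 past the adjusted threshold. DESeq2 called 2 of the 8, both lower, which were its 2 calls among members in that comparison, and limma voom called 0. For DO at 12 h all 8 had a negative log2 fold change, with a median of -1.95 and 4 at an unadjusted p under 0.05 in edgeR. At 24 h 7 of 8 were negative, with a median of -0.75 and 2 at such a p. Without Mys25, 4 of 8 were negative at 24 h, with a median of -0.50 and 1 at such a p. Of all features, 6.62% and 6.48% had such a p at 12 h and 24 h.

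**Figure D5:**
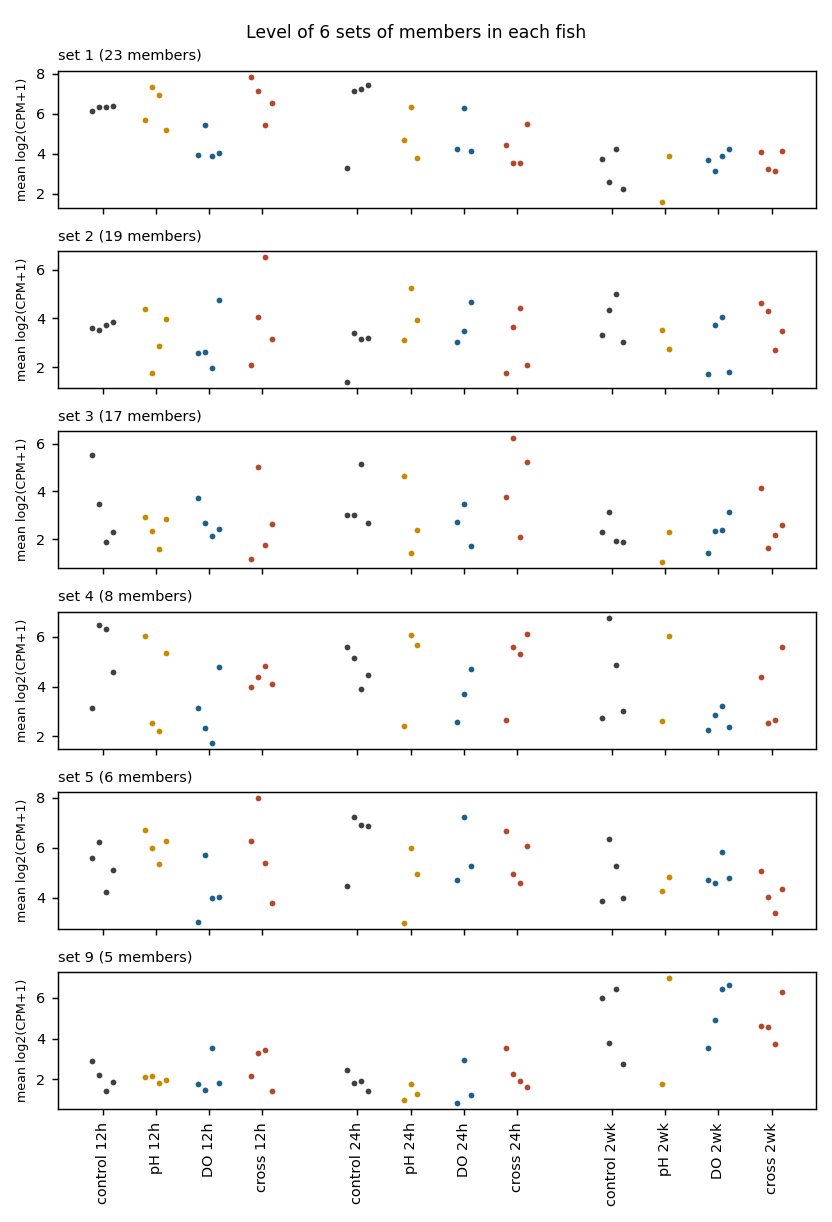
Mean log2(CPM+1) of the members of sets 1, 2, 3, 4, 5 and 9 in each of 44 fish (points), by group; grey is control, yellow pH, blue DO and red cross. In set 1 the 4 DO fish at 12 h lie below the controls of that time, at 24 h 3 control fish lie above all exposed fish and 1 below them, and no fish at 2 weeks exceeds 4.26. Set 9 has its highest fish at 2 weeks, with a median of 4.77 there.

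Sampling time was compared over the 4 exposures with equal weight, in the same fit of 44 fish and 34070 features. Time cannot be told apart from any handling that went with it. Between 24 h and 12 h, 12 members were called, all lower, where edgeR called 7.7% of all features, 3.64% higher and 4.06% lower. Between 2 weeks and 12 h, 49 members were called, 12 higher and 37 lower, against 32% of all features, 13.9% higher and 18.1% lower. Between 2 weeks and 24 h, 48 were called, 16 higher and 32 lower, against 39.6% of all, 17.2% higher and 22.4% lower. As shares of the 150 members these totals were 8%, 32.7% and 32%, near or below the background. By direction they were 0% higher and 8% lower, 8% higher and 24.7% lower, and 10.7% higher and 21.3% lower. The lower share thus exceeded the background in the comparisons of 24 h and of 2 weeks with 12 h, and the higher share was under it in all 3. In those 2 comparisons with 12 h, set 1 alone held 7 of the 12 and 19 of the 37 lower calls. Members of that set vary together over fish, so these calls are not separate observations. Called lower were 30.4% and 82.6% of the 23 members of set 1. Set 3 had 0 and 7 of 17 members lower, and set 5 had 1 and 1 of 6. Set 7 had 1 and 2 of 5, set 9 had 1 and 0 of 5, and sets 2, 4, 6 and 8 had 0. Members in no set of 5 or more had 2 and 8 of 57. The pooled lower share outside set 1 was not computed, and the excess is not described as a trait of members outside it. Without Mys25 the counts were 12, 50 and 52, against 9.58%, 33.1% and 41.2% of all features. With all 44 fish, the median log2 fold change of members was -0.19 for 24 h against 12 h, where that of all tested features was 0.04. It was -0.37 for 2 weeks against 12 h, against -0.04 over all, and -0.17 for 2 weeks against 24 h, against -0.12.

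Averaged over the exposures, most of set 1 was lower at 2 weeks than at 12 h and at 24 h. Its mean over members had a lowest, median and highest fish of 3.89, 6.24 and 7.84 (12 h), 3.29, 4.56 and 7.44 (24 h), and 1.60, 3.69 and 4.26 (2 weeks). Of its 23 members edgeR called 7 lower at 24 h than at 12 h and 19 lower at 2 weeks than at 12 h. Against 24 h, 15 were lower at 2 weeks and 1 higher (16 and 1 without Mys25). Its DN47670_c0_g3 was lowest, median and highest at 3.33, 144 and 794 CPM at 12 h, at 5.14, 41.5 and 1168 CPM at 24 h, and at 0.735, 2.18 and 4.65 CPM at 2 weeks. No fish at 2 weeks reached the lowest fish of 24 h. In control fish alone the median of DN47670_c0_g3 was 204 CPM at 12 h and 887 CPM at 24 h. The log2 fold change of DN47670_c0_g3 was -6.47 (SE 0.81, adjusted p = 2.4e-07 by edgeR) at 2 weeks against 12 h and -5.34 (SE 0.76, adjusted p = 1.11e-06 by edgeR) against 24 h. DN44831_c0_g3, also of set 1, had a median of 54.4 CPM at 12 h and 1.04 CPM at 2 weeks, a log2 fold change of -5.45 (SE 0.83, adjusted p = 5.7e-06 by edgeR).

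Set 9 went the other way, and all of its 5 members were called higher at 2 weeks in both comparisons, with median log2 fold changes of 3.25 against 12 h and 4.64 against 24 h. Its mean had a lowest, median and highest fish of 1.43, 2.06 and 3.56 (12 h), 0.83, 1.82 and 3.56 (24 h), and 1.77, 4.77 and 6.95 (2 weeks). The 2 pH fish at 2 weeks held both ends of the last range. DN55112_c3_g1 of this set had 3.19, 7.40 and 131 CPM (lowest, median, highest) at 12 h, 1.70, 5.47 and 28.3 CPM at 24 h, and 6.89, 238 and 728 CPM at 2 weeks. Most but not all fish were above the earlier ones. Its log2 fold change was 4.45 (SE 0.59, adjusted p = 6.6e-07 by edgeR) against 12 h and 5.40 (SE 0.68, adjusted p = 1.26e-07 by edgeR) against 24 h. DN44625_c2_g4 rose by 3.74 (SE 0.48, adjusted p = 3.19e-07 by edgeR) on the log2 scale against 12 h, from a median of 3.68 to 39.1 CPM. DN46257_c2_g5 rose by 4.74 (SE 0.54, adjusted p = 1.99e-08 by edgeR) against 24 h, and its lowest fish at 2 weeks, 5.47 CPM, was above its highest at 24 h, 5.16 CPM.

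Of the remaining sets, set 3 had 7 of 17 members lower and 1 higher at 2 weeks against 12 h and 8 lower against 24 h. Set 8 had 3 of 5 members higher at 2 weeks against 12 h and 2 against 24 h. Set 7 was mixed, with 1 of 5 members higher and 2 lower against 12 h and 2 higher and 2 lower against 24 h. Set 5 had 1 of 6 members lower in each of these comparisons, and 3 of 6 in each without Mys25. Between 24 h and 12 h, sets 5 and 7 each had 1 member lower and sets 3 and 8 had 0. In sets 2, 4 and 6, with 32 members in all, edgeR called 0 in the 3 comparisons of times, with an unadjusted p under 0.05 in 4 of 96 tests. DESeq2 called 2 and limma voom 3 of these. In the comparisons of 24 h with 12 h, 2 weeks with 12 h and 2 weeks with 24 h, respectively, 22.1%, 41% and 47.2% of all features had such an unadjusted p. DESeq2 called 9.27%, 33.6% and 40.1% of all features there, and limma voom 7.52%, 35.8% and 41.7%.

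The 2 members named for a fall between 12 h and 24 h were in no set of 5 or more. DN46542_c1_g2 had 5.63, 37.4 and 116 CPM (lowest, median, highest) at 12 h and 1.23, 2.36 and 12.2 CPM at 24 h. Its log2 fold change was -3.74 (SE 0.50, adjusted p = 1.08e-05 by edgeR). DN50476_c4_g1 had 5.67, 24.2 and 338 CPM at 12 h and 1.93, 11.5 and 96.1 CPM at 24 h, with broad overlap, and a log2 fold change of -2.56 (SE 0.59, adjusted p = 0.00584 by edgeR). With limma voom the adjusted p of DN50476_c4_g1 was 0.0553. Among members lower at 2 weeks than at 24 h, the gapped DN56095_c5_g3 had a log2 fold change of -4.53 (SE 1.45, adjusted p = 0.0127 by edgeR). High fish numbered 4 of 14 at 24 h and 1 of 14 at 2 weeks, and 4 of 16 at 12 h. Its low fish had 5.57 to 9.25 CPM at 24 h and 2.27 to 5.09 CPM at 2 weeks, without overlap. Its adjusted p was 0.0729 with limma voom, and by edgeR 0.0778 without the pH fish Mys53 and 0.0845 without the pH fish Mys54, both at 2 weeks.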

How the data were processed

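White muscle RNA of 44 fish was sequenced from stranded mRNA libraries prepared in 2 sets in random order, per the labels' protocols. The submitters' processing notes name RSEM 1.3.0, Bowtie, edgeR, Trimmomatic 0.36 and FastQC 0.11.5, without order or role. The authors deposited expected counts (estimated reads per assembled feature), not normalized, in 1 table per sampling time. Of their values 9.60% are not whole, and 83976 of 239549 features are at 0 in every fish. The 3 tables were joined by identifier.

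The rule for members used the counts as deposited, with a pseudocount of 1 CPM. At these depths 3 counts equal 0.0818 to 0.303 CPM, counting error only. For tests, counts were rounded to whole numbers and fitted in R 4.3.3 with edgeR 4.0.16 (TMM, filterByExpr with minimum count 10 and total 15, robust quasi-likelihood F test, two-sided, Benjamini-Hochberg adjustment, threshold 0.05). Each time was 1 fit of 4 groups, with 24701, 26357 and 26595 features tested at 12 h, 24 h and 2 weeks. All 150 members were tested in each fit. Each SE is the fold change over the root of its F value. The scripts were tested on simulated data. In no pair of fish of 1 group did counts agree within sampling noise (chi-square per feature 18.8 or more over 61 pairs).

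Alternatives were voom with quality weights (limma 3.58.1), DESeq2 1.42.0, RLE size factors, other filters, pseudocounts, spread measures, clusterings, and each fish left out in turn. Named features are the 2 members of largest spread, the last member and the first feature left out, 2 leading members of each of the 5 largest sets, up to 2 called members per direction and comparison with the largest fold change, the 2 lowest pairs, the 2 largest falls in the cluster sum, and the gapped members, which were chosen after their values were seen. The members and lists were chosen with earlier results of these data known. No gene list or marker could be used, because the tables hold no gene names.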

Additional observations from a re-analysis of the deposited data

Results flagged for a closer look

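The mean log2(CPM+1) of each of the 5 largest sets, and each fish's root mean square deviation over members, were examined in the 9 groups of 4 fish for a highest or lowest fish far from the other 3. Of the 54 groups of values examined, 6 stood out, where chance flags about 1 in 20. That rate is no yardstick here, because members were chosen for spread within groups and the sets share fish, Mys25 alone giving 3 of the 6. The values are a description. In control fish at 24 h, Mys25 was far below the others in set 1 (3.288), set 2 (1.39) and set 5 (4.488). In set 3 of the same group Mys27 was far above, at 5.142. Among DO fish, Mys22 at 12 h was high in set 1 (5.437) and Mys59 at 2 weeks was high in set 5 (5.846).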

How the results depend on the processing

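Changing the rule one step at a time (scaling, pseudocount, level filter, measure of spread) kept 106 to 137 of the 150 members, and leaving out each fish in turn kept 120 to 146. The largest set held 17 to 24 members and sets of 5 or more held 71 to 115 under other cuts, linkage, scaling and rank correlation, and 19 to 24 and 82 to 102 with a fish left out. Without a low-count filter edgeR called 2 members for DO and 2 for cross at 12 h, 1 for pH, 4 for DO and 8 for cross at 24 h, and 5 for DO at 2 weeks, where it had called 0. Shares of all features under that setting are not given here, so these counts have no background. DESeq2 called 2 for DO at 12 h, 15 for cross at 24 h, 3 for pH and 2 for DO at 2 weeks, and 6 for the cross effect by time. limma voom called 21 for cross at 24 h and 5 for the cross effect by time. A gap of 1.5 in place of 2 log2 units, chosen after seeing the data, gave 11 gapped members of 19 such features in all. Summing all features that share the DN number halved the SD of 29 members in place of 13. With each fish left out, the calls of members ranged from 10 to 15 for 24 h against 12 h, from 40 to 53 for 2 weeks against 12 h and from 41 to 53 for 2 weeks against 24 h. They ranged from 0 to 14 for cross at 24 h and from 0 to 9 for the cross effect by time (14 and 9 without Mys25, and 1 for the latter without Mys7071). They ranged from 0 to 1 for pH at 24 h (1 without Mys31) and from 0 to 1 for pH at 2 weeks (1 without Mys54, which leaves 1 pH fish, taken to vary as the other groups do). The other comparisons stayed at 0 in all leave-outs. Among the leave-outs, shares of all features called are given above for Mys25 only, so the other counts have no background. Of the named changes over time, DN56095_c5_g3 lost its call in 3 of 49 alternatives (log2 fold change -5.78 to -2.55, edgeR, DESeq2 or limma adjusted p up to 0.0845) and DN50476_c4_g1 in 1 (-2.98 to -1.73, adjusted p up to 0.0553). The others kept theirs in all 49, and no direction turned. The cause of these shifts was not tested. No paired analysis was possible because fish numbers are unique to a fish and shared by no groups.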
